A study of Mus musculus with 9 samples.

Results

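The genes described here are 39 mouse genes of the NRF2, glutathione and thioredoxin systems, listed by name with earlier results of these data known, and all 39 were among the 12003 genes measured. They were followed in alveolar macrophages, the resident phagocytes of the lung air spaces, by poly(A) RNA sequencing of 3 genotypes with 3 libraries each. Each library came from a pool of 5 to 7 untreated mice, 8 to 12 weeks of age on a C57BL/6 background, from whose lung lavage CD11c-bearing cells were taken with magnetic beads. Floxed controls, Vhl(flox/flox)/CD11c(+/+), carry loxP sites around part of Vhl and no Cre. Cre controls, Vhl(+/+)/CD11c(cre/+), carry a Cre recombinase driven by the CD11c promoter and intact Vhl. Vhl knockouts, Vhl(flox/flox)/CD11c(cre/+), carry both. The 6 libraries of the control genotypes are called controls together. The CD11c promoter is also active in dendritic cells, so neither the Cre nor the bead purification is specific to alveolar macrophages. VHL is the subunit of a ubiquitin ligase that recognises the hypoxia-inducible factor (HIF) alpha subunits.

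NRF2, encoded by Nfe2l2, is a transcription factor that the adaptor KEAP1 normally delivers for degradation. When oxidants or electrophiles modify KEAP1, NRF2 accumulates, pairs with small MAF proteins and binds antioxidant response elements, which BACH1 can occupy as a repressor. Its target genes supply and recycle glutathione, the main small thiol of the cell, and maintain the thioredoxin system, which passes electrons from NADPH to protein disulfides and to the peroxiredoxins. Alveolar macrophages meet inhaled oxidants directly and use these systems against them.

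Values are normalized reads, that is reads scaled to library size and not corrected for gene length. Each library held 18201116 to 25861174 reads, and 3 reads, the most that a count of 0 allows, equal 0.120 to 0.170 normalized reads. Log2 differences were fitted with limma to log2(value + 1), with p-values adjusted over all 12003 genes, and a gene is called at an adjusted p under 0.05. Values are given as mean ± SD (n = 6 control and n = 3 knockout libraries), and p-values measure only the spread between pools. In bulk RNA a smaller number of cells of a type and less RNA per cell cannot be told apart. Vhl itself fell from 20.9 ± 3.79 to 2.23 ± 0.261 normalized reads in the knockouts, with every knockout library below every control (log2 difference -2.75 ± 0.110 SE, limma adjusted p = 6.06e-08). All 15 alveolar macrophage markers looked for were measured, with 5 of the 15 called higher and 4 lower, beside 19.7% and 20.2% of all genes. Their summed level was 28377 to 33508 in the controls and 38228 to 51605 in the knockouts. Most of that sum is Chil3, a chitinase-like protein, which rose from 17872 ± 1538 to 30308 ± 6785, and the other 14 markers summed to 11987 to 14715 in the controls and 12797 to 13549 in the knockouts, which overlap. All 11 dendritic cell markers looked for were measured too and all 11 fell, beside 20.2% of all genes called lower. Their sum was 257, 128 and 159 normalized reads in floxed controls 1 to 3, 149, 328 and 281 in Cre controls 1 to 3, and 57.5 to 66.9 in the knockouts. Markers of lung epithelium summed to 94.9 to 284 in the controls and 58.9 to 92.6 in the knockouts, and the 13 mitochondrially encoded genes to 24498 to 55545 and 17488 to 24345. The summed levels of neutrophil markers, 86.2 to 699 in the controls and 136 to 404 in the knockouts, overlapped, as did those of red cell markers, 13.2 to 92.4 and 0.306 to 37.7. Of 11 interstitial macrophage and monocyte markers Ccr2, Vcan and F13a1 rose, F13a1 from 0.596 ± 0.303 to 53.2 ± 10.0, and Cx3cr1, C1qa, C1qb and C1qc fell, with sums of 1890 to 2809 in the controls and 2382 to 2982 in the knockouts. The part of other cells in the results below was not tested.

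The NRF2, glutathione and thioredoxin genes were mostly lower in the knockouts. Against both controls 29 of the 39 genes were called, 23 lower and 6 higher, beside 39.8% of all genes called, 20.2% lower and 19.7% higher. The median log2 difference of the 39 genes was -0.44, beside -0.00216 for all genes. Slc7a11, Gclm, Me1, Txnrd1, Srxn1, Prdx1, Nqo1 and Osgin1 were called lower by at least 1 on the log2 scale, that is 8 of 39 genes beside 2.71% of all genes. Mgst3 was called higher by at least 1, as 1 of 39 beside 3.7%. The genes that rose were Keap1, Gpx1, Mgst1, Mgst3, Txnrd2 and Prdx2. Gpx4, Gstp1, Gsto1, Txn1, Prdx3, Prdx4, Prdx5, Prdx6, Sod1 and Blvra were not called.

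Every knockout library lay below every control library for 21 of the 39 genes, beside 18.5% of all genes, and above every control for 6, beside 19.3%. Against the floxed controls alone 25 of the 39 genes were called, 19 lower and 6 higher, beside 34.3% of all genes called, 16.8% lower and 17.5% higher. Against the Cre controls alone 28 were called, 24 lower and 4 higher, beside 34% of all genes, 17.7% lower and 16.3% higher. These comparisons share the knockout libraries. Called lower against each control were 18 genes, beside 13.6% of all genes, and called higher against each were Keap1, Gpx1, Mgst1 and Mgst3, beside 13.7%.

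The summed level of the 39 genes was 6956, 7195 and 6030 normalized reads in the floxed controls, 6585, 8552 and 8022 in the Cre controls, and 5799, 5696 and 5528 in the knockouts. Cre controls 2 and 3 were the highest libraries and the knockouts the lowest, with no overlap between knockouts and controls. Of the 23 genes called lower, 18 had their highest value of the 6 controls in Cre control 2, whereas this library held the highest control value for 534 of the 2420 genes called lower in the whole table (22.1%). Cre control 2 also had the highest summed level of dendritic cell markers, and the part of those cells in the differences was not tested. An alternative chosen after the data were seen left out Cre controls 2 and 3, leaving the floxed controls and Cre control 1. Fewer of the 39 genes were then called, as were fewer of all genes. The log2 difference was -2.19 for Slc7a11, -0.95 for Gclm, -0.82 for Me1 and -1.30 for Txnrd1. It was -1.11 for Srxn1, -0.85 for Prdx1, -1.78 for Nqo1, -1.08 for Osgin1 and 1.08 for Mgst3. These are the genes named above as called by at least 1 on the log2 scale. Osgin1 lost its call in this alternative and the others kept theirs. In those remaining 4 controls the dendritic cell sum was 128 to 257, still above the knockouts.

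**Figure D1:**
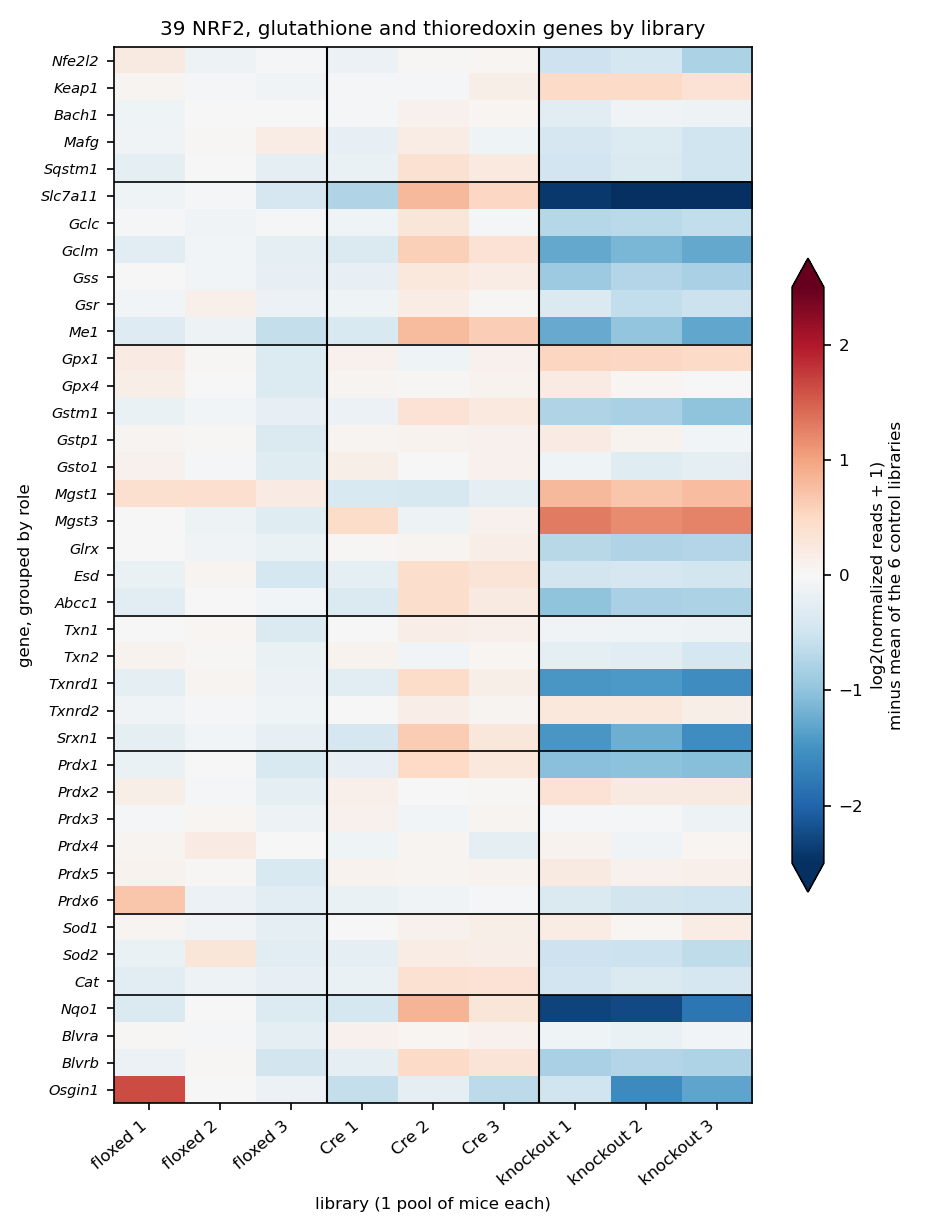
Each row is 1 of the 39 genes, grouped by role, and each column 1 library; colour is log2(normalized reads + 1) minus the mean of the 6 control libraries, with the scale ending at 2.5 in either direction. The knockout columns are below the control mean for most rows. They are above it for Keap1, Gpx1, Mgst1, Mgst3, Txnrd2 and Prdx2, and also for Prdx5 and Sod1, which were not called. Cre controls 2 and 3 stand above the other controls for many of the rows that fell.

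The antioxidant response element to which NRF2 and the MAF proteins bind has the core TGACNNNGC. RefSeq promoters (GRCm38.p6, 250 bases before to 50 after the transcription start) were found for 35 of the 39 genes and searched on both strands, and a gene with several promoters was counted once if any held the letters. The core was present in 10 of the 35, or 28.6%, beside 17.1% of the 9241 measured genes that have a promoter and 12.4% of all 32851 promoters of that length. By call, 7 of the 20 lower genes with a promoter held it, 1 of the 6 higher and 2 of the 9 not called. The shorter core TGANNNNGC, which includes the first, was in 48.6% of the 35 promoters and in 48.2% of those of the measured genes. The hypoxia response cores ACGTG and GCGTG, which HIF recognises, were in 31.4% and 57.1% of the 35, beside 29.7% and 56.0% of the measured genes. A match is a description of the letters only, and no binding was measured.

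Shown are stretches around the core in genes whose levels are described below, written 5′ to 3′ on the strand of the gene, with the core or its reverse complement in capitals. Srxn1 is shown at its match to the shorter core, which overlaps the AP-1 motif TGACTCA, as does the core of Prdx1. The Mafg, Mgst1 and Nfe2l2 stretches are kept short because there the core falls in an exon of a GENCODE M21 transcript, of the neighbouring transcripts Gm17586 and E030042O20Rik for Mafg and Nfe2l2 and of Mgst1 itself. The stretch of Txnrd1 lies in an intron of its longest annotated transcript, before the starts of shorter ones.
Gclm, chr3:122245388-122245466, plus strand: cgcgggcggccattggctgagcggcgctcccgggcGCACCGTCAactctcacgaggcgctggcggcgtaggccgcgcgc
Prdx1, chr4:116685431-116685509, plus strand: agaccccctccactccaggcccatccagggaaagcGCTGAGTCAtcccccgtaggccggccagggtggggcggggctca
Srxn1, chr2:152105444-152105515, plus strand: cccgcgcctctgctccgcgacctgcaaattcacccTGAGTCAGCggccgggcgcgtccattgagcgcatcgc
Txnrd1, chr10:82859079-82859157, plus strand: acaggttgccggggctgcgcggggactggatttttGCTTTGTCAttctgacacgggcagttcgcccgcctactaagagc
Nfe2l2, chr2:75704885-75704913, minus strand: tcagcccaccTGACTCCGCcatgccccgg
Mafg, chr11:120633751-120633779, minus strand: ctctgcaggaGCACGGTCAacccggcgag
Mgst1, chr6:138140461-138140489, plus strand: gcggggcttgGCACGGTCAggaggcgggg
Mafg and Mgst1 carry the same core letters, and Mafg fell in the knockouts whereas Mgst1 rose.

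Of the 5 regulators, the activator Nfe2l2, its partner Mafg, the repressor Bach1 and Sqstm1 were called lower and the inhibitor Keap1 higher. Among all genes 20.2% were called lower and 19.7% higher. Nfe2l2 (ENSMUSG00000015839, chr2:75675513-75704641) stood at 284, 222 and 237 normalized reads in the floxed controls, 219, 248 and 251 in the Cre controls and 170, 177 and 139 in the knockouts. All 3 knockouts were below all 6 controls, and the mean fell from 243 ± 23.9 to 162 ± 20.2 (log2 difference -0.58 ± 0.0981 SE, limma adjusted p = 0.00106). Keap1 (ENSMUSG00000003308, chr9:21229730-21239361), the adaptor that marks NRF2 for degradation, had 54.7, 51.3 and 48.7 in the floxed controls, 50.4, 50.6 and 57.4 in the Cre controls and 72.6, 73.1 and 67.1 in the knockouts. The groups did not overlap, and the knockout level was 1.36-fold that of the controls (0.44 ± 0.0633 SE, limma adjusted p = 0.000435). Of the exons of Keap1, 10.9% are shared with an antisense transcript, whose reads cannot be told apart since the strand setting is not given.

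Bach1 (ENSMUSG00000025612, chr16:87698945-87733346), the repressor of antioxidant response elements, changed little, with 177, 190 and 192 in the floxed controls, 186, 206 and 198 in the Cre controls and 157, 179 and 175 in the knockouts. Knockout 2 overlapped the lowest control, and the call (log2 difference -0.17 ± 0.0587 SE, limma adjusted p = 0.0451) was lost in 10 of 19 alternative analyses, among them those without floxed control 2 or 3, Cre control 2 or 3, or any 1 knockout (adjusted p = 0.054 to 0.206). Mafg, a small MAF partner of NRF2, fell from 64.2 ± 7.09 to 47.6 ± 2.81 normalized reads without overlap (-0.42, limma adjusted p = 0.00459). Sqstm1, which encodes p62, an autophagy receptor that binds KEAP1, fell from 647 ± 122 to 469 ± 23.8 without overlap (-0.44, limma adjusted p = 0.00977). Of the exons of Sqstm1, 17.3% are shared with Mrnip on the opposite strand, whose reads cannot be told apart either. Sqstm1 was called against the Cre controls (-0.60, adjusted p = 0.00528) and not against the floxed controls alone (-0.29, adjusted p = 0.109).

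All 6 genes of glutathione supply and recycling fell, beside 20.2% of all genes called lower. Each of the 6 was also called lower against each control genotype, beside 13.6% of all genes. The median log2 difference of the 6 was -0.997. Slc7a11 (ENSMUSG00000027737, chr3:49892526-50443614), the cystine carrier of the xc- exchanger that brings in the cysteine precursor, stood at 143, 151 and 116 normalized reads in the floxed controls, 92.2, 273 and 223 in the Cre controls and 28.5, 24.5 and 19.2 in the knockouts. Every knockout was far below every control, although the controls themselves spread 2.96-fold from Cre control 1 to Cre control 2. The knockout mean of 24.1 ± 4.68 was 14.5% of the control mean of 166 ± 68.2 (log2 difference -2.66 ± 0.288 SE, limma adjusted p = 6.56e-05), and without Cre controls 2 and 3 the difference was -2.19 (adjusted p = 4.47e-05).

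Glutamate-cysteine ligase, the rate-limiting enzyme of glutathione synthesis, is a dimer of the catalytic subunit Gclc and the modifier subunit Gclm. Gclm (ENSMUSG00000028124, chr3:122245557-122270732) had 82.2, 95.8 and 84.5 normalized reads in the floxed controls, 77.8, 152 and 129 in the Cre controls and 40.8, 45 and 40.6 in the knockouts. Knockouts and controls did not overlap, and the knockout mean was 40.7% of the control mean (-1.23 ± 0.17 SE, limma adjusted p = 0.000315). Gclc (ENSMUSG00000032350, chr9:77754535-77794485) had 54.1, 52.3 and 53.7 in the floxed controls, 51.0, 68.7 and 54.0 in the Cre controls and 33.5, 34.4 and 35.6 in the knockouts. The 3 knockouts lay within 1.06-fold of each other and below all controls (-0.67 ± 0.085 SE, limma adjusted p = 0.000189). The spread of the controls was 1.35-fold for Gclc and 1.95-fold for Gclm. Gss (ENSMUSG00000027610, chr2:155563181-155592810), glutathione synthetase, which completes the tripeptide, had 20.4, 19.2 and 17.5 in the floxed controls, 17.5, 24.4 and 23.2 in the Cre controls and 10.3, 11.8 and 11.1 in the knockouts. Its knockout libraries were all below its controls (-0.81 ± 0.107 SE, limma adjusted p = 0.000227). Acss2 on the opposite strand shares 6.68% of the exons of Gss, and 2 antisense transcripts share 6.51% and 5.44%.

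Gsr, glutathione reductase, which returns oxidised glutathione to its thiol form with NADPH, fell from 268 ± 24.9 to 189 ± 17.3 normalized reads without overlap (-0.50, limma adjusted p = 0.00117). Me1 (ENSMUSG00000032418, chr9:86581371-86695953), the cytosolic malic enzyme that yields NADPH, was a low-level gene. It had 4.89, 5.73 and 3.85 normalized reads in the floxed controls, 4.68, 11.8 and 10.3 in the Cre controls and 2.06, 2.71 and 2.0 in the knockouts. Knockouts and controls did not overlap, and Cre controls 2 and 3 stood apart from the other 4 controls (-1.18 ± 0.236 SE, limma adjusted p = 0.003). Without those libraries the difference was -0.82 (adjusted p = 0.0087).

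**Figure D2:**
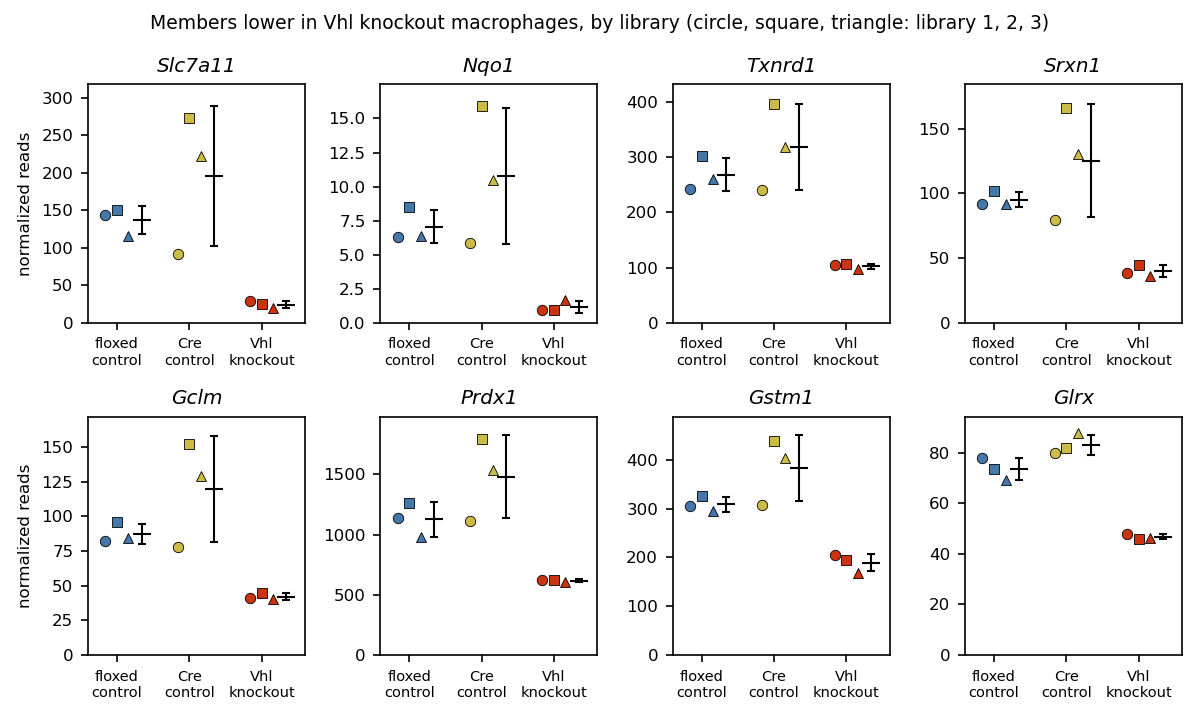
Normalized reads (linear axis from 0) of 8 genes that fell, by genotype; each symbol is 1 library (circle, square and triangle for libraries 1, 2 and 3) and the bar beside them is mean ± SD of 3 libraries. Knockout symbols lie below all control symbols in each panel. Cre controls 2 and 3 are the highest libraries in all 8 panels, for Glrx by little.

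The enzymes that use or export glutathione went in both directions: of 10 genes, Gpx1, Mgst1 and Mgst3 rose, Gstm1, Glrx, Esd and Abcc1 fell, and Gpx4, Gstp1 and Gsto1 were not called. That is 3 higher and 4 lower of 10, beside 19.7% and 20.2% of all genes. Gpx1 (ENSMUSG00000063856, chr9:108338903-108340343), the cytosolic glutathione peroxidase, a selenoprotein, had 592, 526 and 406 normalized reads in the floxed controls, 554, 478 and 554 in the Cre controls and 750, 733 and 721 in the knockouts. The knockouts were above every control, and their mean was 1.42-fold that of the controls (0.51 ± 0.107 SE, limma adjusted p = 0.00372). Mgst3 (ENSMUSG00000026688, chr1:167371966-167393841), a microsomal glutathione transferase of the MAPEG family, had 57.3, 52.1 and 46.1 in the floxed controls, 78.6, 51.9 and 61.4 in the Cre controls and 141, 130 and 137 in the knockouts. Its groups did not overlap and its rise, 2.35-fold, was the largest of the 39 genes (1.24 ± 0.115 SE, limma adjusted p = 2.27e-05).

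Mgst1 (ENSMUSG00000008540, chr6:138140316-138156755), another microsomal transferase and peroxidase of that family, differed among all 3 genotypes. It had 359, 364 and 313 normalized reads in the floxed controls, 207, 206 and 227 in the Cre controls and 476, 441 and 463 in the knockouts, so that the Cre controls were lowest, the floxed controls intermediate and the knockouts highest, with no overlap between any 2 groups. The knockouts exceeded the floxed controls by 0.42 ± 0.073 SE on the log2 scale (limma adjusted p = 0.00174) and the Cre controls by 1.10 ± 0.073 SE (adjusted p = 2.72e-06). The Cre controls were below the floxed controls by 0.69 (log2 difference -0.69 ± 0.073 SE, 95% interval -0.85 to -0.53), a difference known when the list was drawn up and given here as a description. Mgst1 was the only one of the 39 genes called between the control genotypes, where 20 genes or 0.167% of the table were called, 0.1% lower and 0.0667% higher in the Cre controls. At an unadjusted p under 0.05, 10 of the 39 genes passed between the controls, beside 8.01% of all genes; besides Mgst1 these were Sqstm1, Me1, Gstm1, Glrx, Prdx1, Cat, Blvra, Blvrb and Osgin1. All of these but Mgst1 and Osgin1 were higher in the Cre controls.

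Mgst1 lies on chromosome 6, as does Vhl, at a distance of 24.5 Mb. Of the 20 genes called between the controls 11 are on chromosome 6, which holds 4.77% of the measured genes. Within 5 Mb of Mgst1, 33 other genes were measured and 3 of them were called between the controls. Eps8 was at 13 ± 1.29 normalized reads in the floxed controls, 63.3 ± 5.00 in the Cre controls and 30.4 ± 3.42 in the knockouts (Cre against floxed controls 2.20 ± 0.101 SE, limma adjusted p = 7.13e-06). Emp1 went the other way, at 211 ± 18.8 in the floxed and 81.9 ± 14.5 in the Cre controls (-1.37, adjusted p = 0.0012), and so did Ptpro, at 35.8 ± 2.25 and 19.0 ± 1.99 (-0.88, adjusted p = 0.00374). In the knockouts Emp1 was at 484 ± 36.5, so like Mgst1 it was lowest in the Cre controls and highest in the knockouts. Ptpro was at 36.0 ± 3.22 in the knockouts, near the floxed controls. The part of the chromosome around the engineered locus in the Mgst1 difference was not tested.

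**Figure D3:**
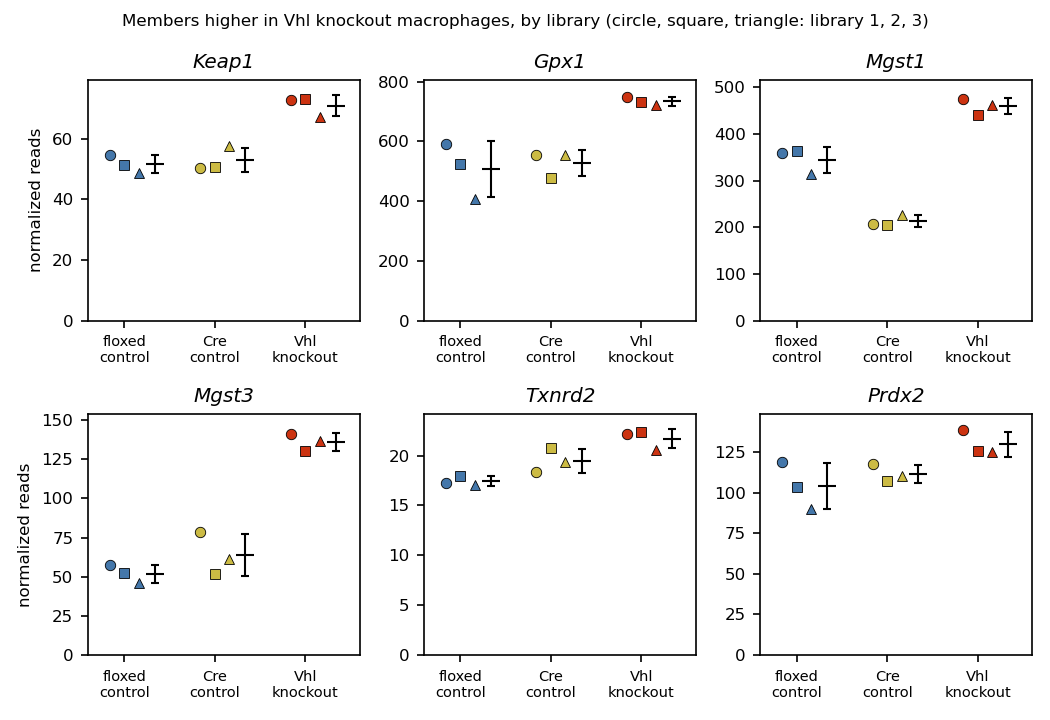
Normalized reads (linear axis from 0) by genotype of the 6 genes that rose; symbols are libraries (circle, square and triangle for libraries 1, 2 and 3) and the bar beside them is mean ± SD of 3 libraries. All knockout symbols lie above all control symbols except for Txnrd2, and in the Mgst1 panel the Cre controls at 206 to 227 are also separated from the floxed controls at 313 to 364.

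Gstm1 (ENSMUSG00000058135, chr3:108012255-108017973), a cytosolic mu-class transferase, had 306, 325 and 295 normalized reads in the floxed controls, 308, 438 and 404 in the Cre controls and 204, 195 and 169 in the knockouts. All knockouts were below all controls (-0.85 ± 0.106 SE, limma adjusted p = 0.000164). Glrx (ENSMUSG00000021591, chr13:75839868-75850154), glutaredoxin, which removes glutathione from protein thiols, had 77.9, 73.5 and 69.1 in the floxed controls, 79.9, 81.6 and 87.6 in the Cre controls and 47.9, 45.9 and 46.4 in the knockouts. Its controls were among the least spread, at 1.27-fold, and the knockouts stood clear below them (-0.73 ± 0.0545 SE, limma adjusted p = 5.15e-06). Abcc1 (ENSMUSG00000023088, chr16:14361558-14475737), a pump that exports glutathione and its conjugates, had 106, 129 and 121 in the floxed controls, 99.0, 173 and 148 in the Cre controls and 62.5, 72.0 and 72.6 in the knockouts. The groups did not overlap (-0.87 ± 0.15 SE, limma adjusted p = 0.00121).

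Esd, S-formylglutathione hydrolase, was called at -0.45 (limma adjusted p = 0.0344), but its knockouts at 117 to 121 normalized reads overlapped floxed control 3 at 119. The call was lost in 8 of 19 alternatives, among them those without floxed control 2, Cre control 2 or 3, or any 1 knockout (adjusted p = 0.063 to 0.098). Gpx4, the phospholipid hydroperoxide peroxidase that limits ferroptosis, was at 201 ± 22.8 in the controls and 212 ± 16.1 in the knockouts. Its log2 difference was 0.08 (95% interval -0.13 to 0.30, limma adjusted p = 0.529). Gstp1 gave 0.08 (95% interval -0.14 to 0.30, adjusted p = 0.55), with near-identical copies among which its reads may have been divided. Gsto1, an omega-class transferase, gave -0.21 (adjusted p = 0.0714), and without floxed control 3 it was called at -0.27 (adjusted p = 0.009).

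In the thioredoxin system Txnrd1, Srxn1 and Txn2 fell, Txnrd2 rose and Txn1 was not called. These are 3 lower and 1 higher of 5, beside 20.2% and 19.7% of all genes. Txnrd1 (ENSMUSG00000020250, chr10:82833951-82897712), the cytosolic thioredoxin reductase, had 243, 301 and 260 normalized reads in the floxed controls, 240, 395 and 319 in the Cre controls and 104, 106 and 97.4 in the knockouts. The highest knockout library was far under the lowest control, and the knockout mean of 103 ± 4.64 was 35% of the control mean of 293 ± 59.4 (-1.48 ± 0.133 SE, limma adjusted p = 1.69e-05). Srxn1 (ENSMUSG00000032802, chr2:152105516-152111376), sulfiredoxin, which repairs overoxidised peroxiredoxins, had 91.5, 102 and 92.2 in the floxed controls, 79.3, 166 and 131 in the Cre controls and 38.4, 45 and 35.9 in the knockouts. The knockout mean was 36.1% of the control mean, without overlap (-1.41 ± 0.186 SE, limma adjusted p = 0.000235).

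Txn1, cytosolic thioredoxin, was at 374 ± 45.2 in the controls and 344 ± 5.36 in the knockouts (-0.11, 95% interval -0.30 to 0.08, limma adjusted p = 0.343), and without floxed control 3 it was called at -0.17 (adjusted p = 0.0227). The mitochondrial pair moved in opposite directions. Txn2 fell from 88.2 ± 6.23 to 70.9 ± 5.46 (-0.31, limma adjusted p = 0.00739), and Txnrd2 rose from 18.5 ± 1.4 to 21.7 ± 0.972 (0.22, limma adjusted p = 0.0194), although knockout 3 at 20.6 was below Cre control 2 at 20.8 and the call was lost in 3 of 19 alternatives, among them those without knockout 1 or 2 (adjusted p = 0.0762 and 0.0812).

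The 6 peroxiredoxins reduce peroxides with thioredoxin or glutathione. Prdx1 fell, Prdx2 rose and the other 4 were not called, beside 20.2% of all genes called lower and 19.7% higher. Prdx1 (ENSMUSG00000028691, chr4:116685544-116700822), the abundant cytosolic member, had 1135, 1265 and 977 normalized reads in the floxed controls, 1111, 1791 and 1535 in the Cre controls and 621, 626 and 607 in the knockouts. The knockouts agreed to within 1.03-fold while the controls spread 1.83-fold, and no knockout reached a control (-1.04 ± 0.136 SE, limma adjusted p = 0.000218). Prdx2, the other typical cytosolic member, rose from 108 ± 10.6 to 130 ± 7.65 (0.27, limma adjusted p = 0.0245), a call lost in 5 of 19 alternatives, among them those without Cre control 2 or any 1 knockout (adjusted p = 0.0505 to 0.105). Part of its exons is shared with Rnaseh2a and Junb on the opposite strand. Prdx3 (-0.07), Prdx4 (0.01) and Prdx5 (0.15) had limma adjusted p-values of 0.377, 0.913 and 0.221. Although not called, Prdx5 had all knockouts (266 to 286) above all controls (190 to 263), and is 1 of the 6 genes counted so above. Trmt112 on the opposite strand shares 19.1% of the exons of Prdx5. Prdx6, which also has phospholipase activity, had all knockouts (41.5 to 45.8) below all controls (48.6 to 96.5). It was not called (-0.44, limma adjusted p = 0.0714), with floxed control 1 far above the other controls, and without that library it was called at -0.29 (adjusted p = 0.005), as it was at -0.54 without floxed control 3 (adjusted p = 0.0239).

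Superoxide dismutases turn superoxide into hydrogen peroxide, which catalase breaks down. Sod2 (ENSMUSG00000006818, chr17:13006846-13040063), the mitochondrial enzyme, had 102, 143 and 95.3 normalized reads in the floxed controls, 99.1, 131 and 129 in the Cre controls and 80.2, 79.3 and 74.4 in the knockouts. The knockouts were below all controls (-0.56 ± 0.13 SE, limma adjusted p = 0.00683), and without Cre controls 2 and 3 the call was lost (adjusted p = 0.0553). Cat fell from 272 ± 58.0 to 200 ± 8.05 (-0.42, limma adjusted p = 0.0134). It was called against the Cre controls (-0.61, adjusted p = 0.0049) and not against the floxed controls (-0.22, adjusted p = 0.206), and without knockout 1 it was not called against both (adjusted p = 0.0522). Sod1, the cytosolic copper-zinc enzyme, was at 71.1 ± 6.93 and 78.0 ± 3.9 (0.14, adjusted p = 0.155).

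Of the remaining NRF2 targets, Nqo1, Blvrb and Osgin1 fell and Blvra was not called, beside 20.2% of all genes called lower. Nqo1 (ENSMUSG00000003849, chr8:107388225-107403206), a quinone reductase that is a classic readout of NRF2, had 6.31, 8.5 and 6.40 normalized reads in the floxed controls, 5.88, 15.9 and 10.5 in the Cre controls and 0.901, 0.970 and 1.68 in the knockouts. The knockouts were above the 3-read limit of 0.120 to 0.170 and below every control. The knockout mean of 1.18 ± 0.431 was 13.3% of the control mean of 8.92 ± 3.85 (-2.12 ± 0.249 SE, limma adjusted p = 0.000111), and without Cre controls 2 and 3 the difference was -1.78 (adjusted p = 0.000345). For so low a gene the added 1 in the logarithm understates the change.

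Blvrb (ENSMUSG00000040466, chr7:27447978-27466144), the second biliverdin reductase, which also reduces flavins, had 64.4, 72.9 and 51.9 normalized reads in the floxed controls, 61.1, 100 and 90.4 in the Cre controls and 40.2, 42.7 and 41.5 in the knockouts. The groups did not overlap (-0.77 ± 0.148 SE, limma adjusted p = 0.00228). Blvra, biliverdin reductase A, was at 147 ± 12.9 and 136 ± 4.09 (-0.11, adjusted p = 0.159), and without floxed control 3 it was called at -0.15 (adjusted p = 0.026). Osgin1, an oxidative stress-induced growth inhibitor, was called at -1.13 (limma adjusted p = 0.0381), but floxed control 1 at 18.8 normalized reads stood far above the other 5 controls at 3.05 to 5.43. Knockout 1 at 3.56 lay among the controls. The call was lost in 8 of 19 alternatives, among them those without any 1 Cre control or without knockout 2 or 3 (adjusted p = 0.0534 to 0.157).

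**Figure D4:**
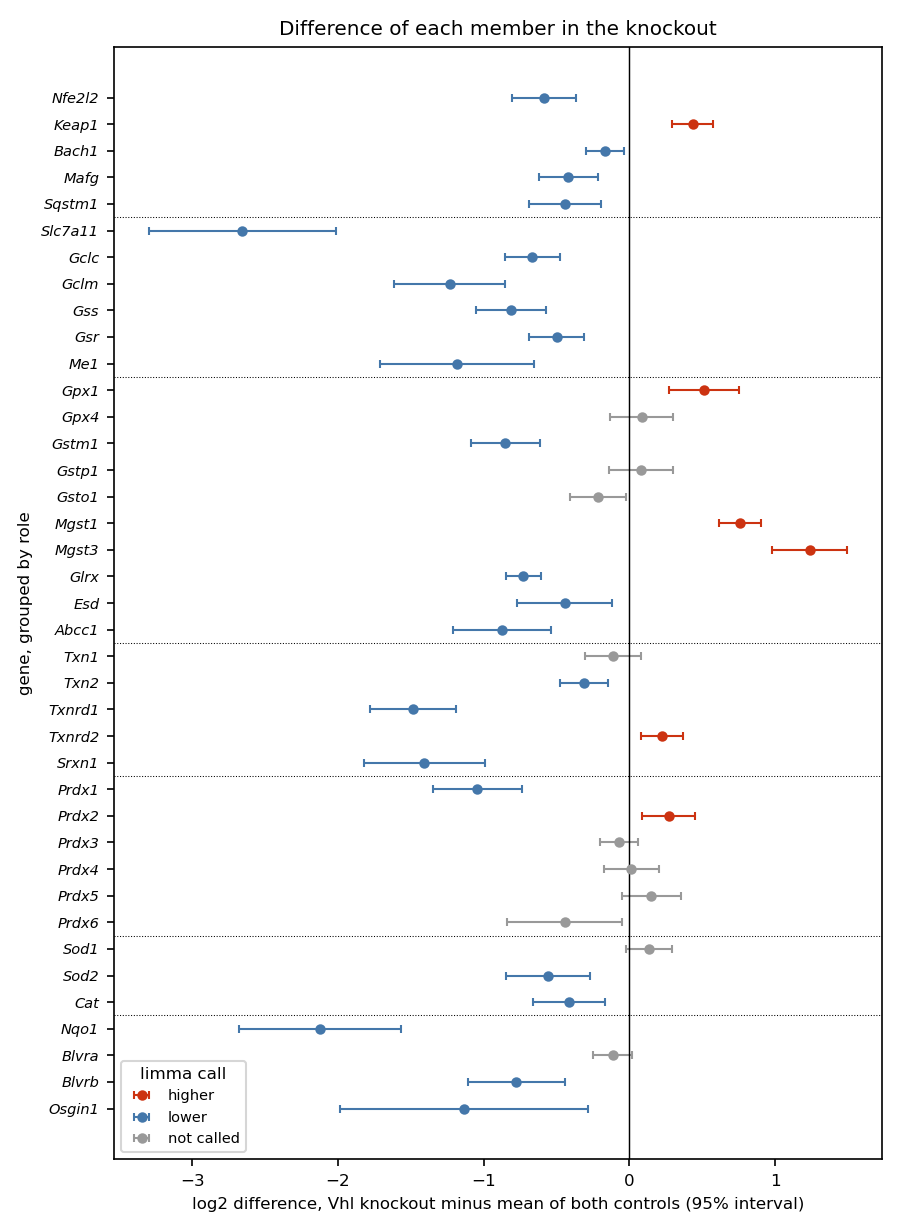
Log2 difference of each of the 39 genes, knockout minus the mean of both control genotypes on the log2(value + 1) scale, with 95% intervals from limma; genes are grouped by role. The 6 genes of glutathione supply and recycling all lie below 0, Slc7a11 is lowest at -2.66 and Mgst3 highest at 1.24.

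Per kilobase of exon, taking all annotated exons of a gene together, the order among the 39 genes changed. Levels of different genes are compared only roughly this way, since the exons in use were not measured. Prdx1 was highest in the controls at 428 normalized reads per kb and ranked 4 in the knockouts at 203. Gpx1 was next in the controls at 360 and highest in the knockouts at 510. Txn1 stood at 356 and 327, Gstm1 at 235 and 129, and Mgst1 at 139 and 228 per kb. Mgst3 moved from 52.8 to 124 per kb and Txnrd1 from 41.4 to 14.5. Slc7a11 lay low on this scale in both, at 11.9 and 1.73 per kb, and Nqo1 at 5.74 and 0.762, while Me1 was the lowest of the 39 in both, at 1.78 and 0.586.

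Other genes of the same pathways, from lists of wider membership, moved in both directions. Of 28 other NRF2 target genes measured of 31, 12 fell (42.9%, beside 20.2% of all genes) and 6 rose (21.4%, beside 19.7%), with a median of -0.18. Hmox1, heme oxygenase, which makes the biliverdin that Blvra and Blvrb reduce, had 475, 612 and 599 normalized reads in the floxed controls, 488, 1190 and 1013 in the Cre controls and 218, 283 and 214 in the knockouts. Like Slc7a11 and Gclm it was highest in Cre controls 2 and 3, and no knockout reached a control (-1.53 ± 0.243 SE, limma adjusted p = 0.000752). Slc48a1, a heme transporter, fell from 253 ± 29.1 to 103 ± 8.37 (-1.28, adjusted p = 5.97e-07). G6pdx, which feeds NADPH to both systems, fell from 234 ± 15.1 to 163 ± 3.19 (-0.52, adjusted p = 8.21e-05). Rising targets included Ugt1a7c, a glucuronosyltransferase, from 158 ± 11.8 to 285 ± 11.6 (0.85, adjusted p = 2.14e-06), although genes of the Ugt1a cluster share their 3′ exons. Entpd5, a nucleoside diphosphatase of the endoplasmic reticulum, rose by 0.66 (adjusted p = 0.000517). Without knockout 2, 11 of these 28 genes were called in place of 18, beside 3748 of all genes in place of 4781. Fewer of the 28 were also called without Cre controls 2 and 3, as were fewer of all genes.

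Among 19 measured partners and regulators of NRF2 of 20 listed, 5 rose, 2 fell and 12 were not called. The 36.8% called is no more than the 39.8% of all genes. Without knockout 3 only 3 were called, beside 3648 of all genes in place of 4781. Maff, a small MAF like Mafg, rose from 47.0 ± 2.61 to 77.9 ± 1.94 normalized reads (0.72, limma adjusted p = 7.38e-06) where Mafg fell. Park7, which encodes DJ-1, rose by 0.60 (adjusted p = 0.000164), Dcaf11, a KEAP1-independent ligase adaptor, by 0.28 (adjusted p = 0.00131) and Bach2 by 0.52 (adjusted p = 0.0324).

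Other glutathione genes, 29 measured of 42, gave 5 higher (17.2%, beside 19.7% of all genes) and 9 lower (31.0%, beside 20.2%). Mgst2, the MAPEG relative of Mgst1 and Mgst3, rose like them, from 7.55 ± 1.23 to 20.9 ± 2.97 (1.36, limma adjusted p = 2.18e-05). Gstt3, a theta-class transferase, rose by 0.54 (adjusted p = 0.000342), and Ggt5, which cleaves extracellular glutathione conjugates, fell from 14.0 ± 1.76 to 7.29 ± 0.81 (-0.85, adjusted p = 0.00033). Gstp3, a relative of Gstp1, was at 0 in Cre controls 2 and 3 and at 2.66 ± 0.3 in the knockouts (adjusted p = 2.37e-05). Its reads may have been divided with those of Gstp1. Fewer of these 29 genes were called without Cre controls 2 and 3, as were fewer of all genes.

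Of 30 measured thioredoxin-related, methionine sulfoxide reductase and selenoprotein genes of 33, 6 rose and 5 fell, and the 36.7% called is no more than the 39.8% of all genes. Txnip, which binds and inhibits thioredoxin, rose from 900 ± 110 to 1581 ± 131 normalized reads (0.82, limma adjusted p = 0.000238), whereas Txn1 was not called. Selenop, the secreted selenium carrier, rose 3.77-fold, from 655 ± 59.2 to 2469 ± 137 (1.91, adjusted p = 3.65e-08). Selenow rose by 0.75 (adjusted p = 2.95e-05) and Msra, a methionine sulfoxide reductase, by 0.63 (adjusted p = 5.04e-05). Sephs2, which makes the selenium donor for selenoproteins such as Gpx1, Txnrd1 and Txnrd2, fell by 0.72 on the log2 scale (adjusted p = 1.14e-05).

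Of 12 measured genes of NADPH supply of 13, 5 fell (41.7%, beside 20.2% of all genes) and 2 rose (16.7%, beside 19.7%). Mthfd2, the mitochondrial folate dehydrogenase, fell from 32.2 ± 5.19 to 9.51 ± 1.04 normalized reads (-1.65, limma adjusted p = 8.84e-06), while Mthfd1l, which follows it in the mitochondrial folate pathway, rose from 4.61 ± 0.865 to 18.1 ± 2.9 (1.77, adjusted p = 8.49e-06). Nadk, which makes NADP, fell from 289 ± 19.7 to 186 ± 6.96 (-0.63, adjusted p = 4.93e-05), and Aldh1l1 fell by 1.17 (adjusted p = 8.18e-05). The NADPH oxidase makes the superoxide of the phagocyte burst. Rac2, its small GTPase, fell from 191 ± 15.8 to 57.0 ± 6.09 (-1.73, adjusted p = 1.67e-07). Cybb, which encodes the catalytic subunit gp91phox, fell too (-0.47, adjusted p = 0.0127), and Rac1 rose by 0.18 (adjusted p = 0.025).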

How the data were processed

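Poly(A) RNA of 9 libraries, 3 per genotype, was sequenced by the submitters as single reads of 61 bases. The submitters' processing notes name the GRCm38 build, RSEM 1.2.3 for counting, cutadapt 1.3 and CASAVA 1.8.2. Strand setting, annotation and later steps were not given in the sources used here. Besides the overlaps given above, Mafg, Gclm, Me1 and Txnrd2 share at most 4.7% of their exons with any 1 other gene. As deposited, the signal is a table of 12003 genes in which each library's values are whole reads times 1 factor, as library-size scaling with a normalization factor gives, and 100% of the values came out whole within 0.01 read. This scaling takes most genes to be equal between libraries. Each gene has at least 0.962 in at least 3 libraries, so genes below that are not analysed here. Among the columns, 0 were left unused. Symbols were found for 11935 of the identifiers and 68 were left without one. GENCODE M21, used for positions and exons, held 11935 of the identifiers. Identical or near-identical libraries were looked for, and none were duplicates within counting noise. Floors of 3 reads cover counting error only.

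The main test was limma 3.58.1 in R 4.3.3 on log2(value + 1), with 1 mean per genotype, an intensity trend, two-sided p-values and Benjamini-Hochberg adjustment over 12003 genes. The script was tested on simulated data. On the recovered reads edgeR 4.0.16 called 4757 genes and DESeq2 1.42.0 called 4925 in the knockouts against both controls, and limma 4781. Other alternatives were pseudocounts of 0.1 and 5, a minimum mean of 5, no trend, no normalization factor, a replicate block and leaving out libraries. Members and gene lists were chosen with earlier results of these data known. Values by library are given for members called against both controls without overlap and with a log2 difference of at least 0.5, for members called between the controls, and for Nfe2l2, Keap1 and Bach1. From each other list up to 4 called genes of smallest adjusted p are named, plus Hmox1 and Txnip, and 1 item under this rule is not reported here. Near a member called between the controls, up to 4 called genes within 5 Mb are named. Promoters came from RefSeq (GRCm38.p6).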

Additional observations from a re-analysis of the deposited data

Results flagged for a closer look

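Mgst1, the microsomal glutathione transferase, differed between the control genotypes: its log2 difference, Cre controls minus floxed controls, was -0.69 with no overlap between the groups, and its rise in the knockouts was 0.42 against the floxed and 1.10 against the Cre controls. The difference was known when the genes were listed and is given as a description. No rule for flagging single deviating libraries was applied to groups of 3, but each library was left out in turn, as given below.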

How the results depend on the processing

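Under the 19 alternatives, 22 of the 29 called members kept their call in every one, and Bach1, Esd, Osgin1, Prdx2, Txnrd2, Cat and Sod2 lost it in at least 1. Leaving out 1 library gave 20 to 26 members lower and 4 to 6 higher against both controls, beside 3648 to 4974 of all genes called. Against the floxed controls 19 to 27 members were called, beside 3098 to 4101 of all genes. Against the Cre controls it was 22 to 30 members, beside 3052 to 4436 of all genes, and between the controls 1 to 3 members. The 3, without Cre control 1, were Mgst1, Cat and Gclm. Without both Cre controls 2 and 3, chosen after seeing the data, 14 members were called against the Cre controls in place of 28 and 0 between the controls in place of 1, where 1 Cre control is left and is assumed to vary like the other groups. Fewer of all genes were also called against the Cre controls in that fit, so the drop was not confined to the members. The log2 difference of Mgst1 between the controls was -0.73 in that fit, given as a description. Prdx4, 0.01 in the main analysis, was -0.034 without a normalization factor and -0.027 to 0.068 with 1 library left out (negative without floxed control 3, Cre control 3 or knockout 1), and the cause was not tested. With the replicate number as a block, 24 members were lower and 6 higher, a replicate block value close to the main 23 and 6. Of all genes, 4898 were called against both controls with the block, in place of 4781. Same-numbered libraries correlated at -0.0817 to 0.575, with 5 of 9 pairs over 0.1, and 8 of 18 comparisons were best with their own number, so the numbers were not taken to pair the libraries. The 3 libraries numbered 1 did correlate with each other, at 0.202, 0.332 and 0.575, and had the highest neutrophil marker sums, at 699, 314 and 404 normalized reads. Between the controls, 20 of all genes were called in the main analysis, 71 with the replicate block, 74 with DESeq2, 31 without Cre control 1, 13 without Cre control 3, 11 with only the groups compared and 6 without Cre controls 2 and 3. Depth limits the low genes, as the fewest reads in a library were 19 for Nqo1, 22 for Osgin1 and 48 for Me1.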
